A study of Mus musculus with 6 samples.

Results

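The genes described here encode the initiation and elongation factors of cytosolic translation, measured in HL-1 cells 48 h after transfection. They were chosen by name and type: protein-coding genes with symbols beginning Eif1 to Eif6 or Eef1 and Eef2, without the kinases that phosphorylate eIF2 and without 1 further eEF1A gene. The rule found 57 of the 22913 genes in the count table, and 56 had enough counts to be tested. HL-1 is an established mouse line derived from atrial heart muscle tumour cells. The control group (3 libraries) received a control plasmid and the HSPA1A group (3 libraries) a plasmid for overexpression of HSPA1A, a stress-inducible HSP70 chaperone, which the labels call human. Both groups grew in DMEM with fetal bovine serum, and the labels of both name Lipofectamine 2000 as the transfection reagent. Separate cultures are not named for the replicates, so the spread behind each p-value is that of the libraries and may be technical only.

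The libraries held 23849656 to 26897086 read counts. HSPA1A replicate 2 stood apart from the other HSPA1A libraries on the first principal component (34.3% of the variance), at -15.1 against 15.9 and 18.3, while the controls lay between -8.27 and -4.33. Results that rest on that library are given with and without it. The mouse Hspa1a counts were 10, 17 and 11 in control and 17, 20 and 11 in HSPA1A libraries (log2 fold change 0.39, adjusted p = 0.795, edgeR's quasi-likelihood test), so the mouse gene's count does not separate the groups. Reads of a human transcript enter these counts where they map to the mouse gene. Of 11 heart muscle markers listed, 9 were in the count table, without Myl7 and Pln. Of these, 5 averaged at least 1 CPM (counts scaled to library size): Des, Tnnt2, Gata4, Nkx2-5 and Myl4. Actc1, Tnni3, Ryr2 and Tbx5 were at or near 0, with at most 0.16 FPKM in any library. The summed markers stood at 708 to 729 CPM in control and 637 to 676 CPM in HSPA1A libraries, with Des at 614 CPM of the total. Of the markers of other cells, 0 of 5 endothelial genes averaged 1 CPM, and they summed to 0.338 to 0.602 CPM in control and 0.342 to 0.702 CPM in HSPA1A libraries. Of 6 leukocyte genes listed, 4 were in the count table, without Adgre1 and Cd3e. Only Cd68 averaged at least 1 CPM, and the 4 summed to 3.25 to 5.29 CPM in control and 4.27 to 7.39 CPM in HSPA1A libraries. Of 6 fibroblast genes 4 did, led by Col1a2, and they summed to 396 to 414 CPM in control and 373 to 395 CPM in HSPA1A libraries. Whether these reads come from other cells or from the HL-1 cells themselves was not tested, nor was their part in the results. In bulk RNA, fewer cells of a type and less RNA per cell cannot be told apart.

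Initiation brings the ribosome to the start codon of an mRNA. The factor eIF2, bound to GTP, carries the initiator tRNA to the small subunit, and eIF2B recharges eIF2 with GTP. eIF3 holds the small subunit, eIF4F binds the mRNA cap and unwinds the leader, and eIF1, eIF1A and eIF5 govern scanning and start codon choice. During elongation eEF1A delivers aminoacyl-tRNA, the eEF1B subunits recharge it, and eEF2 moves the ribosome along. In heart muscle, mTOR signalling through the eIF4E-binding proteins and the brake set by eEF2 kinase are known points of control over protein synthesis.

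No translation factor gene passed the test between HSPA1A and control cells. With edgeR's quasi-likelihood test and Benjamini-Hochberg adjustment over all genes, 0 of 56 were called at an adjusted p under 0.05, against 0.179% of the 12827 genes tested (0.0234% higher and 0.156% lower). At an unadjusted p under 0.05 the count was also 0 of 56, against 8.59% of tested genes (4.33% higher and 4.26% lower). DESeq2 called 0 of 56, against 0.499% (0.203% higher and 0.296% lower). At an unadjusted p under 0.05 DESeq2 gave 1 factor higher, Eif3m, and 0 lower, against 5.99% of tested genes (3.07% higher and 2.92% lower). The log2 fold changes ran from -0.13 (Eif4ebp2, a repressor of cap-dependent initiation) to 0.18 (Eif3m, an eIF3 subunit), with 31 positive, 25 negative and a median of 0.024. The median over all tested genes was 0.0029, and 51.0% of them were positive. The sign of the factors' median depends on the scaling: it was -0.012 on library totals alone (all tested genes -0.033) and -0.034 on log2(FPKM + 1) (all tested genes -0.041).

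The intervals bound the differences. The 95% interval of all 56 genes lay inside a 1.5-fold change in either direction, against 80.4% of all tested genes. For 45 of 56 it lay inside 1.2-fold, against 46.0% of all tested genes. The median standard error was 0.060 on the log2 scale for the factors and 0.084 over all tested genes, and the shares depend on that precision. These intervals come from all 6 libraries. Without HSPA1A replicate 2 the estimates of Eif3m (0.29) and Eef2k (-0.30) lay beyond 1.2-fold (0.26 on the log2 scale). Among the 5509 tested genes between 27.9 and 763 CPM, the central range of the factors, the median standard error was 0.061 and the standard deviation of the log2 fold changes was 0.10. For the 44 factors in that range the standard deviation was 0.066.

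**Figure D1:**
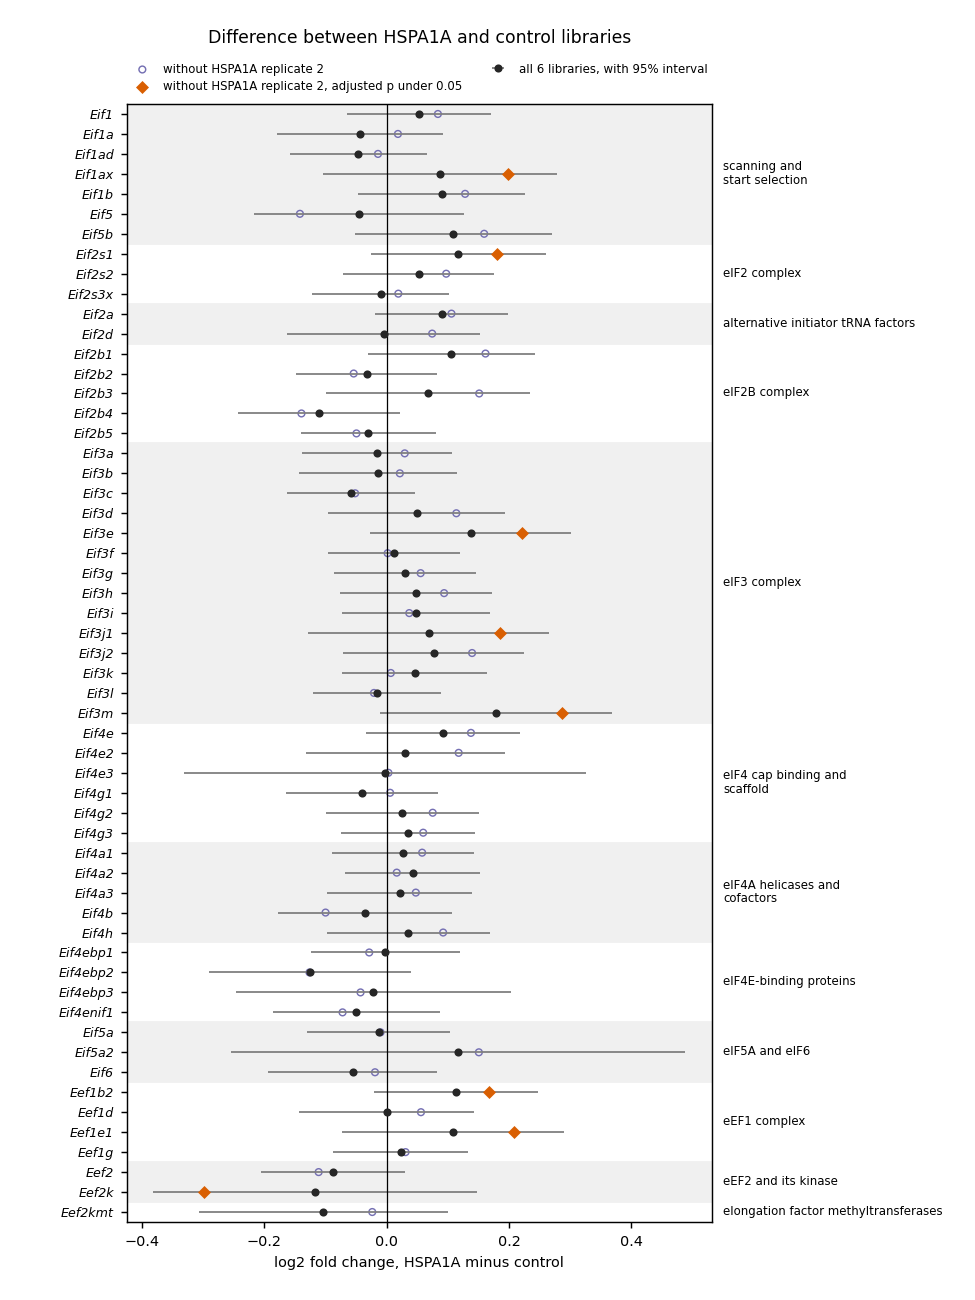
Log2 fold change between HSPA1A and control libraries for the 56 tested translation factor genes, ordered by role. Black points and grey lines give the estimate from all 6 libraries with its 95% interval, and every line crosses 0; open circles give the estimate without HSPA1A replicate 2, and the 8 diamonds are the genes called in that fit.

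The levels of the factors spanned more than their differences between groups. Levels of different genes are compared here per length, in the FPKM (fragments per kilobase, scaled to library size) that the authors deposited. The depth that FPKM implies is not the count total: relative to control replicate 1 it was 0.918 in control replicate 2, 0.918 in HSPA1A replicate 1 and 0.951 in HSPA1A replicate 3, where the count totals gave 0.928, 0.902 and 0.9397. FPKM therefore sets HSPA1A replicates 1 and 3 lower, and control replicate 2 higher, than count totals do, and directions seen on FPKM alone carry that limit. Of the 57 genes, 22 averaged at least 100 FPKM, 29 lay between 10 and 100 and 6 lay under 10. Eef2, the translocation factor, and Eif1, the guardian of start codon fidelity, stood highest, at 1023 FPKM each over the 6 libraries. At the other end, Eef1a2, the eEF1A isoform of adult muscle and neurons, had 1 read in HSPA1A replicate 3 and 0 in the other libraries. A count of 0 there allows up to 0.112 to 0.126 CPM (3 counts of the library total, counting error only). Across the 6 libraries the FPKM of a tested factor varied by 1.65% to 16.02% (coefficient of variation, median 4.92%).

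**Figure D2:**
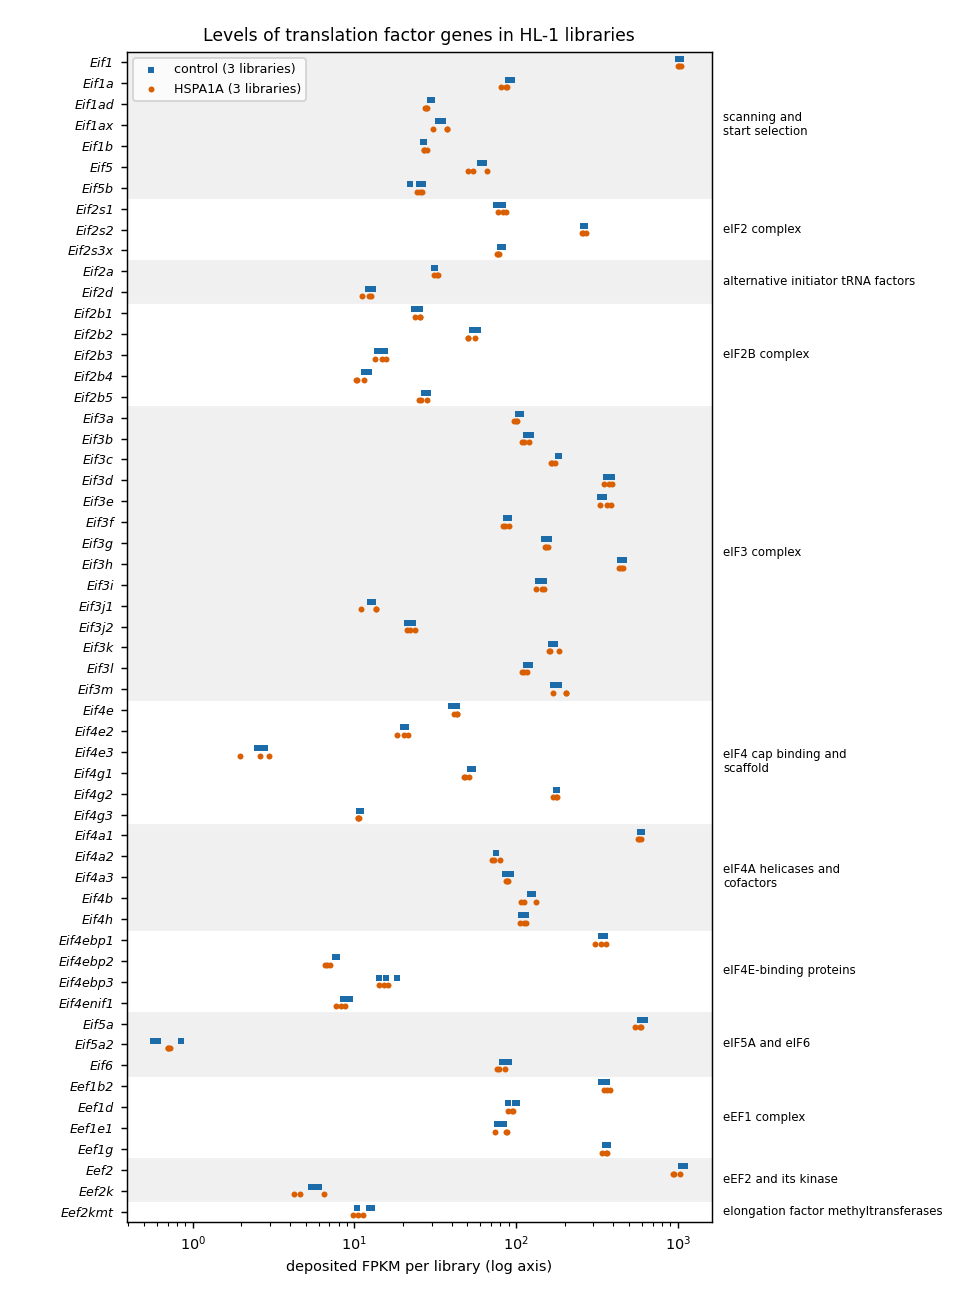
Deposited FPKM of 56 translation factor genes (log axis), ordered by role, with squares for the 3 control and circles for the 3 HSPA1A libraries. The libraries of a gene lie close together, while genes range from 0.69 FPKM for Eif5a2 to 1023 FPKM for Eef2; Eef1a2 is not drawn.

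Start sites of a few members are shown because translation factor mRNAs are a textbook class of mTOR-controlled messages, whose 5′ terminal oligopyrimidine (TOP) tract begins with C at the first transcribed base. RefSeq promoter windows (GRCm38.p6, 250 bases before to 50 after the annotated start) were found for 44 of the 57 genes. Each sequence runs 5′ to 3′ and holds 25 bases before the RefSeq start and the first 25 bases from it. Capitals mark a pyrimidine run of 5 or more that begins with C at the start, or, in Eef2, a run further in, and the motifs CCGGAAG (bound by ETS factors) and AAGATGGC (bound by YY1).
Eif3f (eIF3 subunit f), chr7:108934390-108934439, plus strand: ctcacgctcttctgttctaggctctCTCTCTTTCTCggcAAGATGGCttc
Eif2s3x (eIF2 gamma), chrX:94212627-94212676, minus strand: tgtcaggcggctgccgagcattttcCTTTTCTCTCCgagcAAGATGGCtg
Eef2, chr10:81176606-81176655, plus strand: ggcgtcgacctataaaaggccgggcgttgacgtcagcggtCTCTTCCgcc
Eif2b4 (eIF2B delta), chr5:31193115-31193164, minus strand: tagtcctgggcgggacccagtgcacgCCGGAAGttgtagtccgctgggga
Eef1b2 (exchange factor of eEF1A), chr1:63176806-63176855, plus strand: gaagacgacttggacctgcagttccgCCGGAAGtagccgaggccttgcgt

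Eif3f and Eif2s3x each carried an 11-base pyrimidine run from the annotated start, with AAGATGGC beginning at base 15 in Eif3f and base 16 in Eif2s3x. In Eef2 a run of 7 began at base 16 from the annotated start. A C followed by at least 4 pyrimidines, exactly at the start, was found in these 2 of 44 factor genes (4.55%), in 13 of 58 cytosolic ribosomal protein genes (22.4%) and in 3.07% of the 9207 tested genes with a window. A run of C and 7 further pyrimidines, beginning anywhere from 20 bases before to 20 after the start, was in 10 of 44 factor genes (22.7%), 53.4% of ribosomal protein genes and 17.9% of tested genes. CCGGAAG, searched on both strands, was in 16 of 44 factor windows (36.4%), 41.4% of ribosomal protein windows and 20.6% of tested genes' windows. AAGATGGC, on both strands, was in 5 of 44 (11.4%), against 5.42% of tested genes. TATAAA, on both strands, was in 4 of 44 (9.09%), against 8.55%. The end of CCGGAAG and the beginning of AAGATGGC share AAG and can overlap in a window. A match is a description of the window only. The pyrimidine searches rest on the annotated start, so a missing match does not show that an mRNA lacks a TOP tract. Eef2, listed below as a known TOP mRNA, was not matched at the start.

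With all 6 libraries no factor gene known as a TOP mRNA passed the test. Of the 9 listed (Eef1b2, Eef1d, Eef1g, Eef2, Eef1a2, Eif3e, Eif3f, Eif3h and Eif4b), 8 were tested, 0 were called, 5 log2 fold changes were positive and the median was 0.017 (-0.018 on library totals alone and -0.040 on log2(FPKM + 1)). Without HSPA1A replicate 2, 2 of the 8 were called, Eef1b2 and Eif3e, both higher (10.2% of all tested genes were called in that fit, 5.27% higher), and the median was 0.043. For the 48 other factors the median was 0.026 with all libraries. Cytosolic ribosomal protein genes, the core of the TOP class, had 76 of 78 positive values and a median of 0.13, with 0 called by edgeR and 1 by DESeq2, and 33 of 78 were higher at an unadjusted p under 0.05 (edgeR). Without HSPA1A replicate 2, 45 of the 78 were called higher and the median was 0.18. On log2(FPKM + 1) 67 of the 78 were positive, with a median of 0.067. Eif3f stood at 232, 239 and 238 CPM (here and below scaled by TMM, the library normalisation of edgeR) in control and 231, 243 and 241 CPM in HSPA1A libraries. Its log2 fold change was 0.012 ± 0.049 (SE), and the groups overlapped. Eif2s3x stood at 320, 325 and 312 CPM in control and 319, 305 and 326 CPM in HSPA1A libraries, and these overlapped as well. On FPKM its groups did not overlap, at 80.33, 83.27 and 79.45 in control and 76.75, 76.83 and 78.21 in HSPA1A libraries.

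Among the scanning and start selection factors, 0 of 7 genes were called, with log2 fold changes from -0.046 to 0.11. Eif1 (chromosome 11, 100319885 to 100322096, here and below in GENCODE M21 on GRCm38) stood at 1014, 1010 and 1051 FPKM in control and 1007, 1013 and 1044 FPKM in HSPA1A libraries. The groups overlapped. Its paralog Eif1b was 38.0 times lower on the FPKM scale, averaged over the libraries. Eif1b had 25.99, 25.8 and 25.7 CPM in control and 28.6, 26.1 and 27.8 CPM in HSPA1A libraries, so that every HSPA1A library was above every control. The difference did not pass the test (log2 fold change 0.090 ± 0.062 SE, adjusted p = 0.729, edgeR). The eIF1A pair, which secures the initiator tRNA, was led by Eif1a, at 89.4, 94.6 and 90.3 FPKM in control and 86.9, 80.6 and 87.9 FPKM in HSPA1A libraries. On FPKM every HSPA1A library of Eif1a was below every control, while its TMM-scaled counts overlapped (log2 fold change -0.044). Eif1ax was at 183, 190 and 194 CPM in control and 216, 169 and 217 CPM in HSPA1A libraries, with replicate 2 the lowest of all 6. Eif5b, the GTPase of subunit joining, was at 184, 205 and 220 CPM in control and 222, 204 and 230 CPM in HSPA1A libraries. Control replicate 1 was the lowest of these.

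For eIF2, which carries the initiator tRNA, 0 of 3 genes were called. Eif2s2, the beta subunit, was the most abundant, at 261, 267 and 263 FPKM in control and 259, 255 and 273 FPKM in HSPA1A libraries, while Eif2s1 and Eif2s3x (alpha and gamma) averaged 80.5 and 79.1 FPKM. Eif2s1, whose protein is the target of the stress kinases (chromosome 12, 78861819 to 78887010), stood at 273, 295 and 284 CPM in control and 314, 282 and 329 CPM in HSPA1A libraries. HSPA1A replicates 1 and 3 were above every control and replicate 2 lay among them, giving a log2 fold change of 0.12 ± 0.065 (SE). The alternative initiator tRNA factors averaged 31.8 FPKM (Eif2a) and 12.3 FPKM (Eif2d). Eif2a was at 76.2, 76.4 and 76.7 CPM in control and 84.0, 79.8 and 80.3 CPM in HSPA1A libraries, without overlap (log2 fold change 0.090 ± 0.049 SE, adjusted p = 0.640, edgeR). Eif2d was at 53.4, 56.8 and 54.6 CPM in control and 58.4, 48.9 and 57.1 CPM in HSPA1A libraries, with replicate 2 the lowest.

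The 5 subunit genes of eIF2B, the exchange factor that recharges eIF2, ranged from 11.3 FPKM for Eif2b4 to 54.0 FPKM for Eif2b2. None was called, with 2 positive and 3 negative values. Eif2b2, the beta subunit, was at 91.0, 97.97 and 94.5 CPM in control and 90.5, 95.3 and 91.3 CPM in HSPA1A libraries, and the groups overlapped. The largest differences went in opposite directions. Eif2b1, the alpha subunit of the regulatory part, was at 50.1, 53.4 and 50.6 CPM in control and 57.1, 51.2 and 57.6 CPM in HSPA1A libraries (fitted log2 fold change 0.11). Eif2b4 was at 29.3, 30.8 and 30.8 CPM in control and 27.6, 29.2 and 27.3 CPM in HSPA1A libraries, all below the controls (log2 fold change -0.11, adjusted p = 0.640, edgeR). Eif2b4 overlaps Snx17 on the other strand.

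The eIF3 scaffold had 14 genes, of which 0 were called and 10 had positive log2 fold changes (median 0.047, from -0.058 to 0.18), where 8 were positive on library totals alone and 4 on log2(FPKM + 1). Its mRNAs were not at equal levels. Leaving out Eif3j1 and Eif3j2, which encode the loosely bound j subunit, the 12 others ranged from 87.6 FPKM for Eif3f to 447 FPKM for Eif3h, a 5.10-fold span. Eif3h was at 437, 466 and 443 FPKM in control and 448, 432 and 456 FPKM in HSPA1A libraries. The groups overlapped. Eif3m (chromosome 2, 104999656 to 105017080) had the largest log2 fold change of all the factors, 0.18 ± 0.086 (SE, 95% interval -0.011 to 0.37, adjusted p = 0.607, edgeR). Its values were 232, 247 and 241 CPM in control and 290, 230 and 294 CPM in HSPA1A libraries, so replicates 1 and 3 were high and replicate 2 was the lowest of all 6. Eif3e followed the same order, at 542, 566 and 565 CPM in control and 627, 541 and 672 CPM in HSPA1A libraries. The difference was 0.14 ± 0.074 (SE) on the log2 scale and did not pass the test. Eif3j1 was at 72.15, 73.6 and 70.8 CPM in control and 81.7, 63.5 and 82.2 CPM in HSPA1A libraries, again with replicate 2 lowest.

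The eIF4F group binds the cap and prepares the leader, and 0 of its 11 genes, cofactors included, were called. Eif4a1, the main helicase, stood at 586 FPKM, 7.85 times its paralog Eif4a2. Eif4a1 was at 582, 595 and 601 FPKM in control and 569, 575 and 595 FPKM in HSPA1A libraries. Eif4a2 was at 75.0, 75.7 and 74.7 FPKM in control and 72.9, 79.7 and 70.6 FPKM in HSPA1A libraries. Both overlapped between the groups. Eif4a3, the helicase of the exon junction complex, was at 85.0, 93.2 and 92.8 FPKM in control and 89.3, 87.9 and 86.9 FPKM in HSPA1A libraries. Its log2 fold change from counts was 0.021. Eif4h, a helicase cofactor, was at 314, 328 and 333 CPM in control and 349, 307 and 343 CPM in HSPA1A libraries (fitted log2 fold change 0.035). Replicate 2 was the lowest of these.

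The cap-binding genes were far lower than the helicase. Eif4e was at 39.4, 42.2 and 43.0 FPKM in control and 42.9, 41.3 and 43.3 FPKM in HSPA1A libraries. Eif4e2, which encodes a cap-binding repressor, was at 20.1, 20.9 and 20.5 FPKM in control and 20.4, 18.3 and 21.6 FPKM in HSPA1A libraries. Eif4e3 was at 2.58, 2.80 and 2.48 FPKM in control and 1.96, 2.59 and 2.98 FPKM in HSPA1A libraries. The levels of these 3 genes did not overlap. Of the scaffolds, Eif4g2, whose protein lacks the eIF4E site, was the highest at 177 FPKM, followed by Eif4g1 at 50.9 and Eif4g3 at 10.7 FPKM over the 6 libraries. Eif4g2 was at 178, 179 and 179 FPKM in control and 176, 168 and 179 FPKM in HSPA1A libraries. Eif4g1 was at 333, 344 and 332 CPM in control and 345, 307 and 329 CPM in HSPA1A libraries. Eif4g3 was at 115, 113 and 118 CPM in control and 119, 114 and 121 CPM in HSPA1A libraries. On the scales given, all 3 scaffolds overlapped between the groups. On FPKM, however, every HSPA1A library of Eif4g1 was below every control. Its values were 51.59, 54.32 and 52.08 FPKM in control and 51.17, 47.64 and 48.63 FPKM in HSPA1A libraries. The log2 fold changes of these 6 genes, computed from counts, ran from -0.041 to 0.092.

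The eIF4E-binding proteins keep eIF4E from the scaffold until mTOR phosphorylates them. Of these repressors Eif4ebp1 led at 341 FPKM, 8.12 times Eif4e. It was at 337, 358 and 349 FPKM in control and 336, 358 and 307 FPKM in HSPA1A libraries, where HSPA1A replicate 3 was lowest. Eif4ebp3 was at 15.7, 18.3 and 14.3 FPKM in control and 15.3, 16.2 and 14.2 FPKM in HSPA1A libraries, and Eif4ebp2 averaged 7.28 FPKM. Eif4ebp2 was below the controls in each HSPA1A library, at 14.9, 14.2 and 14.7 CPM in control and 13.5, 13.4 and 13.2 CPM in HSPA1A libraries. That log2 fold change of -0.13 ± 0.074 (SE) did not pass the test (adjusted p = 0.672, edgeR). Eif4enif1, which encodes the nuclear import carrier of eIF4E, was at 38.8, 40.4 and 36.7 CPM in control and 35.3, 38.6 and 38.0 CPM in HSPA1A libraries. All 4 genes of this role had negative log2 fold changes (median -0.036), also on library totals alone and on log2(FPKM + 1), but 2 of 4 without control replicate 2 or without HSPA1A replicate 3 and 2 of 4 with Yam1 as a covariate.

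Ratios between partners were compared within libraries. For 8 pairs, exact two-sided permutation tests of the log2 FPKM ratio gave p from 0.2 to 0.8 (adjusted p from 0.64 to 0.8), and 3 against 3 libraries cannot give a p below 0.1. The ratio of Eif4ebp1 to Eif4e was 8.38 ± 0.23 in control and 7.86 ± 0.79 in HSPA1A libraries (SD, n = 3 each). Eif1a to Eif1ax gave 2.65 ± 0.09 and 2.43 ± 0.16. Eif4g2 to Eif4g1 gave 3.39 ± 0.08 and 3.55 ± 0.12. None of the 8 ratios could reach a p of 0.05 in this design.

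Eif5a, whose hypusine-bearing protein relieves stalled ribosomes, was at 583, 627 and 598 FPKM in control and 585, 592 and 544 FPKM in HSPA1A libraries. Its paralog Eif5a2 was at 0.61, 0.84 and 0.57 FPKM in control and 0.72, 0.70 and 0.70 FPKM in HSPA1A libraries, with the widest interval of the factors (-0.26 to 0.49 on the log2 scale). Eif6, which keeps free large subunits apart from small ones, was at 82.2, 90.3 and 88.1 FPKM in control and 85.7, 78.8 and 76.0 FPKM in HSPA1A libraries, and its log2 fold change from counts was -0.056.

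Of the elongation factors, 0 of 4 eEF1 genes and 0 of 3 genes of eEF2, its kinase and its methyltransferase were called. Eef1g and Eef1b2, subunits of the exchange complex, were at 360 FPKM each. Eef1g was at 707, 725 and 724 CPM in control and 755, 725 and 711 CPM in HSPA1A libraries, with overlap. Eef1b2 (chromosome 1, 63176825 to 63180486) stood at 698, 734 and 742 CPM in control and 792, 727 and 833 CPM in HSPA1A libraries. HSPA1A replicate 2 was again among the controls (log2 fold change 0.11 ± 0.061 SE). Eef1e1, which encodes a component of the multi-tRNA synthetase complex, was at 83.9, 90.95 and 87.9 CPM in control and 99.8, 81.3 and 102 CPM in HSPA1A libraries, with the same order of replicates.

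Eef2 (chromosome 10, 81176631 to 81182498) was lower in all 3 HSPA1A libraries, at 3263, 3428 and 3245 CPM against 3468, 3612 and 3483 CPM in control. The means were 3312 ± 101 and 3521 ± 79 CPM (SD, n = 3 each), and the log2 fold change of -0.088 ± 0.053 (SE) did not pass the test (adjusted p = 0.676, edgeR). Eef2k, the kinase that inhibits eEF2, was at 42.8, 43.0 and 38.8 CPM in control and 32.1, 47.2 and 35.3 CPM in HSPA1A libraries. Here replicates 1 and 3 were the lowest and replicate 2 the highest of all 6 libraries. Eef2kmt, a methyltransferase gene of eEF2, was at 24.2, 29.0 and 28.2 CPM in control and 27.5, 22.6 and 25.7 CPM in HSPA1A libraries.

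Counting genes whose groups did not overlap on TMM-scaled CPM gave 2 factors higher (Eif1b and Eif2a) and 5 lower in HSPA1A libraries. The lower ones were Eef2, Eif2b4, Eif4ebp2, Eif3c and Eif1ad, the last pair named after their values were seen. On FPKM the groups of Eif1b, Eif2a and Eif2b4 overlapped, while those of Eef2, Eif4ebp2, Eif3c and Eif1ad did not. Eif1a, Eif2s3x, Eif3a and Eif4g1, which overlapped on CPM, were also lower without overlap on FPKM. The share of all tested genes without overlap on FPKM was not computed. The shares that follow are on TMM-scaled CPM. Over all tested genes 7.30% were higher and 7.17% lower without overlap, 14.5% in all, against 12.5% of the factors.

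The order of the HSPA1A replicates recurred across the factors. In 30 of 56 genes, replicates 1 and 3 lay on one side of the control mean and replicate 2 on the other, against 35.1% of all tested genes. Between 27.9 and 763 CPM it was 26 of 44 factors (59.1%), against 41.5% of the tested genes in that range. In 25 of the 30, replicates 1 and 3 were above the control mean and replicate 2 below it, and in 5 the reverse. Over all tested genes these counts were 2269 and 2227. Among the 5509 tested genes between 27.9 and 763 CPM they were 1444 and 841, against 21 and 5 of the 44 factors in that range. The median of the 56 genes against the control mean was 0.054, -0.029 and 0.031 on the log2 scale in replicates 1, 2 and 3. Over all tested genes these medians were 0.0030, 0.0031 and 0.0045. The order was not particular to the factors. Of the pathway lists described below, poly(A) binding and cofactor genes had 0.042, -0.099 and 0.081. The eIF2 kinases and phosphatase subunits had 0.070, -0.076 and 0.044. Termination and rescue genes had 0.023, -0.085 and 0.0022, and genes that modify eIF5A and eEF2 had 0.085, -0.068 and 0.018. Genes of mTOR and MNK control, at 0.0024, 0.0042 and -0.0040, lacked that order. Yam1, annotated as a lincRNA, held 2.70%, 1.58% and 2.53% of the counts in HSPA1A replicates 1, 2 and 3, and 1.86%, 1.18% and 1.23% in control replicates 1, 2 and 3. Replicate 2 was thus the lowest HSPA1A library in Yam1 as well. Together with Rmrp, Rn7sk and Rpph1, RNAs that lack a poly(A) tail, it summed to 11574 to 18464 CPM in control and 15732 to 27563 CPM in HSPA1A libraries. Nearly all of this sum was Yam1, at a mean of 18575 CPM. Of the HSPA1A libraries, replicate 2 was also the lowest in Rmrp and Rn7sk, but it was the highest in Rpph1. When Yam1 (log2 CPM) entered the fit as a covariate, the median of the factors was 0.0020 and 0 were called, as without it. In that fit 74 of 78 cytosolic ribosomal protein genes were positive, with a median of 0.089. Yam1 was itself higher on average in HSPA1A libraries, so such a fit cannot separate it from the group. The part of Yam1, Rmrp, Rn7sk and Rpph1 in the order of the replicates was not tested further.

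**Figure D3:**
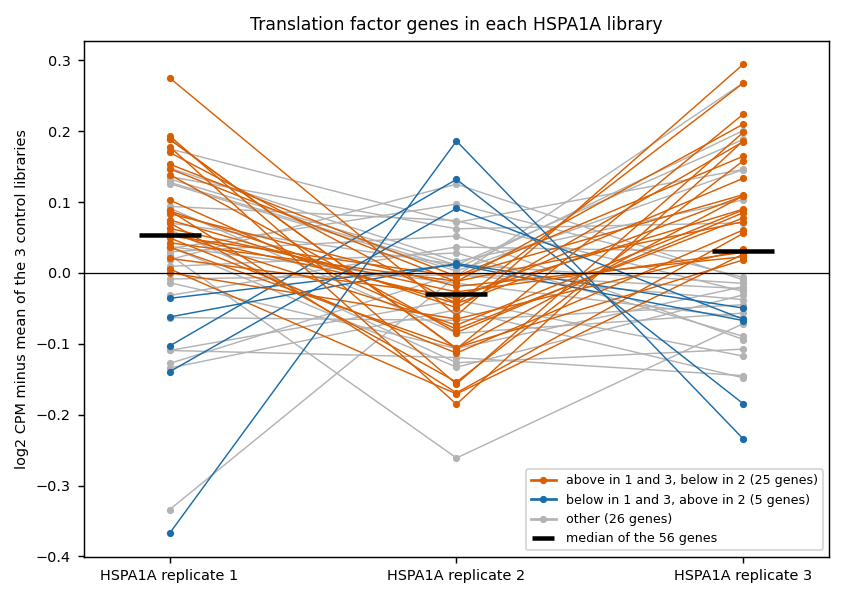
Log2 CPM of each tested factor in each HSPA1A library, relative to the mean of the 3 control libraries; each line is 1 gene and the bars are medians. In 25 genes (orange) replicates 1 and 3 lie above the control mean and replicate 2 below it, and in 5 (blue) the reverse.

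Without HSPA1A replicate 2, edgeR called 8 of 56 factors, against 10.2% of all tested genes in that fit. Of the factors 7 were higher, against 5.27% of all tested genes, and 1 was lower, against 4.94%. The higher genes were Eif3m (log2 fold change 0.29 ± 0.044 SE, adjusted p = 0.00113), Eif3e (0.22 ± 0.047, adjusted p = 0.00747) and Eif1ax (0.20 ± 0.044, adjusted p = 0.0105), with Eef1e1, Eif3j1, Eif2s1 and Eef1b2 between 0.17 and 0.21. Eef2k was the lower one, by -0.30 ± 0.066 (SE, adjusted p = 0.00953, edgeR). In HSPA1A replicate 2, each of the 7 higher genes lay below or within the range of the controls, and Eef2k lay above it. That follows largely from how these 8 genes were picked, as they were called only with that library left out. Replicate 2 was itself set apart by its place on the first principal component of these data. The adjusted p-values of this fit do not allow for that choice. No other omission of a single library led to a call among the factors.

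**Figure D4:**
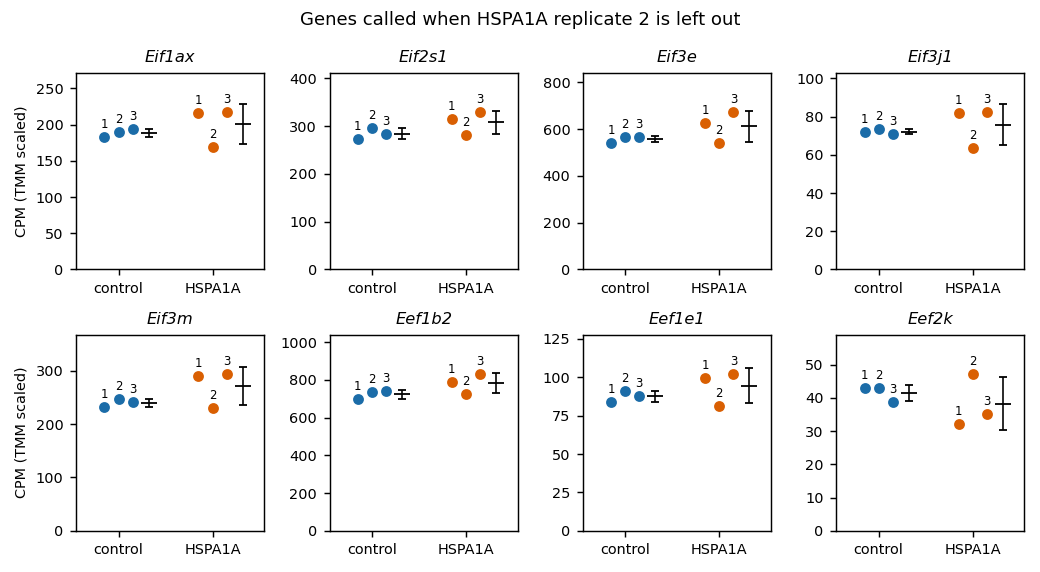
CPM scaled by TMM of the 8 factor genes called when HSPA1A replicate 2 is left out, with replicate numbers above the points and the mean ± SD of each group beside them. In 7 genes HSPA1A replicates 1 and 3 are above every control and replicate 2 is not. In Eef2k replicates 1 and 3 are below every control and replicate 2 is the highest. The genes were picked by that fit, so this pattern follows largely from the choice.

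Genes that regulate or assist the factors were taken from 5 lists of the pathway, and edgeR called 0 in each with all libraries. Among the eIF2 kinases and phosphatase subunits, 4 of 6 values were positive (median 0.040). Eif2ak3, the kinase of the endoplasmic reticulum, had the smallest p, with a log2 fold change of -0.19 (adjusted p = 0.671, edgeR). It was at 15.96, 18.01 and 17.3 CPM in control and 13.96, 17.8 and 13.1 CPM in HSPA1A libraries, and without HSPA1A replicate 2 it was called lower (log2 fold change -0.34, adjusted p = 0.0226, edgeR). Of 14 genes of mTOR and MNK control, 7 were positive and the median was -0.0014. Mtor itself stood at 34.6, 32.8 and 33.1 CPM in control and 37.3, 41.1 and 36.3 CPM in HSPA1A libraries, without overlap but not past the test (log2 fold change 0.19 ± 0.064 SE, adjusted p = 0.477, edgeR). Mknk1, an eIF4E kinase named after its values were seen, went the other way, at 25.1, 27.5 and 28.1 CPM in control and 24.7, 22.8 and 24.6 CPM in HSPA1A libraries (fitted log2 fold change -0.16 ± 0.070 SE, adjusted p = 0.568, edgeR). These were the 2 genes of 14 without overlap, against 14.5% of all tested genes. Of 12 genes of poly(A) binding and initiation cofactors, 9 were positive, with a median of 0.012. Gigyf2, a partner of Eif4e2 in repression, had the smallest p there, at a log2 fold change of 0.073 and with overlap between the groups.

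Termination and ribosome rescue genes had 4 of 10 positive values and a median of -0.022. Gtpbp2, which encodes a GTPase that rescues stalled ribosomes, was at 102, 107 and 109 CPM in control and 88.9, 99.3 and 86.2 CPM in HSPA1A libraries. Each HSPA1A library was below each control (log2 fold change -0.21 ± 0.062 SE, adjusted p = 0.433, edgeR), and without replicate 2 the gene was called lower (adjusted p = 0.00266, edgeR). Zfp598, which encodes a sensor of collided ribosomes and was named after its values were seen, was at 98.4, 97.1 and 95.7 CPM in control and 88.8, 89.6 and 78.97 CPM in HSPA1A libraries. It too was below every control (log2 fold change of -0.18 ± 0.059 SE, adjusted p = 0.476, edgeR) and was called lower without replicate 2 (adjusted p = 0.0229, edgeR). These 2 of 10 genes were the ones called in that fit, against 4.94% of all tested genes called lower. Of 8 genes that modify eIF5A and eEF2, 4 were positive and the median was -0.0037. Dph3, of diphthamide synthesis, was at 65.8, 70.1 and 64.3 CPM in control and 77.1, 70.2 and 78.5 CPM in HSPA1A libraries (fitted log2 fold change 0.17, adjusted p = 0.503, edgeR), and without replicate 2 it was called higher (adjusted p = 0.0128, edgeR).

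Some of these counts may be shared with other genes. In GENCODE M21 (GRCm38), 19 of 57 factors had at least 1 stretch of 150 bases, the read length, that also occurs in a transcript of another gene on either strand, and in 10 of them this was over 10% of the longest transcript. Eif3j2 shared 77.1% of its stretches with Eif3j1, so the split between that pair is uncertain. Eif3j1 shared 40.8%, with Eif3j2 and others. Eif4ebp3 shared 59.7% with AC115631.1, on the same strand, so its values are uncertain too. Eef1g shared 41.7%, Eif3d 38.0%, Eif2s3x 34.3% and Eif4a1 13.4% with other annotated genes. Exons of 14 factors overlapped a gene on the other strand, among them Eif3m with Ccdc73 and Eif2a with Serp1. The kit marks strand, but neither labels nor headers state the strand setting of the counting.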

How the data were processed

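Polyadenylated RNA from 6 HL-1 samples was sequenced in 150-base read pairs from a stranded kit, per the labels' protocols. TopHat2, bcl2fastq, edgeR and the build GRCm38 are listed in the submitters' processing notes, which state no counter or strand setting. The authors deposited whole read counts for 22913 genes and FPKM for 22833, rounded to 2 decimals per the values in the file. FPKM was used for levels between genes and in alternatives on log2(FPKM + 1) or log2(FPKM + 0.1), and counts for tests. Genes passed filterByExpr with a minimum count of 10 and total of 15 (12827 genes). edgeR 4.0.16 (R 4.3.3) compared groups by its quasi-likelihood test after TMM, adjusted by Benjamini-Hochberg over all genes. Other tools were DESeq2 1.42.0, limma 3.58.1, scipy 1.17.1 and matplotlib 3.10.9. The test was tried on simulated counts, with changed genes drawn from all tested genes. It called 27.3% of 1.2-fold changes, 82.7% of 1.5-fold changes and 0.0422% of unchanged genes, so small changes are mostly missed. All library pairs differed beyond counting noise (chi-square per degree of freedom 2.68 to 26.1), and 0 sample columns were unused. Named factors were those called in a fit, the highest in FPKM and the 2 smallest p of each role, and paralog families; other names were chosen by sequence or after their values were seen. The members, lists and rules were chosen with earlier results of these data known.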

Additional observations from a re-analysis of the deposited data

How the results depend on the processing

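The count of factors called was 0 in every setting tried except the fit without HSPA1A replicate 2. Leaving out 1 library in turn gave 0 to 8 factors called, a median log2 fold change of the factors from 0.0033 to 0.042, and 10 to 1323 genes called over all tested genes, where the fit of all libraries called 23. The 10 came without control replicate 3 and the 1323 without HSPA1A replicate 2, and the counts were 14 and 13 without control replicates 1 and 2, and 13 and 14 without HSPA1A replicates 1 and 3. Over all genes DESeq2 called 64, edgeR without a filter on low counts 205, the fit with Yam1 as a covariate 11, and limma-trend on log2 FPKM 15 with a pseudocount of 1, 15 with 0.1 and 15 with a pseudocount of 1 and a mean FPKM of at least 1. The median of the factors on those 3 FPKM scales was -0.0343, -0.0344 and -0.0350, where the median of all genes was -0.041, -0.055 and -0.049. The median was -0.012 on library totals alone, against -0.033 for all genes, so the sign of the factors' median depends on the scaling. Single factors changed sign in 9 of 56 cases on library totals, 16 of 56 on log2(FPKM + 1) and 23 of 56 with the Yam1 covariate. The causes of these shifts were not tested. The replicate block gave 16 genes called over all, 0 factors and a median of 0.023. The deviations of same-numbered libraries from their group means correlated at -0.10, -0.0015 and 0.085. Those of differently numbered libraries correlated at -0.090 to 0.091. These values give no sign of pairing by number, and with 3 libraries per group they cannot exclude it.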

Other observations

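Rows that carry a factor's name without being protein-coding numbered 5 in the count table. The processed pseudogene Eif4a-ps4 had 117, 131 and 143 reads in control and 86, 137 and 98 reads in HSPA1A libraries, with a log2 fold change of -0.23 ± 0.16 (SE, adjusted p = 0.726, edgeR). Eif3s6-ps2 had 16, 12 and 29 reads in control and 14, 5 and 26 reads in HSPA1A libraries. The other 3 rows (Eif1-ps1, Eif3s6-ps1 and Eif2c5) had at most 1 read in any library.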
